A study of Mus musculus with 36 samples.

Results

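A set of 10 transcripts that mark regulatory T cells, or are widely used to follow them, was read across a mouse series on colon cancer and mast cells. The genes are Foxp3, Ctla4, Il2ra, Tnfrsf18, Tnfrsf4, Ikzf2, Il10, Ccr8, Ccr4 and Lrrc32. They were chosen by name, with earlier results of these data known, and all 10 were present among the 988 genes of the panel. The panel (QIAseq Targeted RNA, Mouse Immuno-Oncology) amplifies a short stretch of each chosen transcript, and the libraries were read on a MiSeq. Levels of different genes therefore depend on different amplicons, and only levels of the same gene are compared between samples.

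The azoxymethane samples are from C57BL/6 mice. Azoxymethane (AOM) is a carcinogen that induces colon tumours in rodents. Colon tumours were taken at 32 weeks of age from wild-type mice (n = 5) and from mice with the Kit "sash" mutation, Kit-W/sh (n = 5), 18 weeks after the last of 6 weekly intraperitoneal AOM injections of 10 mg/kg. Preneoplastic colon lesions were taken at 14 weeks from wild-type (n = 3) and sash (n = 3) mice, 3 weeks after 3 AOM injections. A further experiment at 14 weeks used wild-type mice only, with the same AOM schedule: AOM only (n = 3), the mast cell stabiliser cromolyn given together with AOM (n = 3), and cromolyn given after AOM (n = 3). The labelled treatment of the AOM-only group is that of the wild-type lesions. Tumours of the mouse colon carcinoma line MC-38 came from saline-treated wild-type (4 of 5 samples analysed) and sash (5 of 6 samples analysed) hosts. The sample titles name the wild-type hosts B6, and the labels used here give no age for them. The sash mutation is an inherited regulatory mutation of Kit that leaves mice deficient in mast cells from birth, and it also affects other Kit-dependent cells. No colon without AOM was analysed here.

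Regulatory T cells are CD4+ T cells that restrain other immune cells, and in the colon they keep responses to microbes and food in check. FOXP3 is the transcription factor that maintains their identity, and Helios, the product of Ikzf2, is a zinc finger transcription factor found in many of them. Their surface carries the high-affinity IL-2 receptor chain (Il2ra), the inhibitory receptor CTLA-4, and the costimulatory receptors GITR (Tnfrsf18) and OX40 (Tnfrsf4). GARP, encoded by Lrrc32, holds latent TGF-beta at the cell surface, IL-10 is a suppressive cytokine, and CCR8 and CCR4 are chemokine receptors that guide these cells into tissues and tumours. Apart from Foxp3, each of these genes is also used by other cells: activated T cells express Il2ra, Ctla4, Tnfrsf18 and Tnfrsf4, and endothelium and platelets express Lrrc32.

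RefSeq promoter windows (GRCm38.p6) were available for 7 of the 10 genes. The 5 shown belong to the trio described first below (Foxp3, Ctla4, Il2ra) and to the neighbouring pair Tnfrsf18 and Tnfrsf4, which differ in one experiment. Each is the 250 bases upstream of an annotated start, 5′ to 3′ on the gene's strand, all of which here is the plus strand. Capitals mark matches on either strand to a STAT motif (TTCNNNGAA) or to an NFAT core (GGAAAA), the factors that carry IL-2 and T cell receptor signals to the nucleus.
Foxp3, chrX:7580233-7580482: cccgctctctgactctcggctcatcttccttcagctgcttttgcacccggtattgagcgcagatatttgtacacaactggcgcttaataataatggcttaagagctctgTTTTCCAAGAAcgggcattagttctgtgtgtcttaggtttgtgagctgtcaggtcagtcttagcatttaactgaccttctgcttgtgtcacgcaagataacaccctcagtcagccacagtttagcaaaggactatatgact
Ctla4, chr1:60908775-60909024: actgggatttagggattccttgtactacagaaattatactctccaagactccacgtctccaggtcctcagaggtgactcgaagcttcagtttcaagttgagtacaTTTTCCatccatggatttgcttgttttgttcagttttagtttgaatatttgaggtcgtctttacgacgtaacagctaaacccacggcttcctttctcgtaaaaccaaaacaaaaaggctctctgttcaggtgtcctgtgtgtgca
Il2ra, chr2:11642542-11642791: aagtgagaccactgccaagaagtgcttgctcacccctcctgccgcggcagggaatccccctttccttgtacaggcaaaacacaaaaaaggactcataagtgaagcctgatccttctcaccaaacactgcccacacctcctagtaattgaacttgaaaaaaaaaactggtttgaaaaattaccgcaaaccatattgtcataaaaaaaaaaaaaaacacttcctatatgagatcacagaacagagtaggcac
Tnfrsf18, chr4:156026072-156026321: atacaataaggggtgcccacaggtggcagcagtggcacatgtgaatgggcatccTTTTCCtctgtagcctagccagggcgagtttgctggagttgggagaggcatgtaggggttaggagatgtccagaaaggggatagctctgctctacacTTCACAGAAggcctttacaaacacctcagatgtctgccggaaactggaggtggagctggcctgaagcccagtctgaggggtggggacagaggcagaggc
Tnfrsf4, chr4:156013445-156013694: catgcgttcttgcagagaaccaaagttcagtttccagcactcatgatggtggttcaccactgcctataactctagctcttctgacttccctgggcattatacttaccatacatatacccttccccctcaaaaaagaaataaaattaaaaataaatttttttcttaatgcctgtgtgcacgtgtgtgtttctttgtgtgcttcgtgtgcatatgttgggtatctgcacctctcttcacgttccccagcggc
The Foxp3 window holds a STAT match and an NFAT match that overlap, beginning 139 and 141 bases before the start. Tnfrsf18 has a STAT match at 99 bases and an NFAT match at 196 bases, and Ctla4 has an NFAT match at 145 bases. The windows of Il2ra and Tnfrsf4 hold neither. Among 32851 RefSeq windows of the same length, 7.02% held the STAT motif and 20.4% the NFAT core, so such matches are common. A second annotated Foxp3 start, with its window at chrX:7579426-7579675, had neither of these but a TATAAA at 32 bases, a motif held by 12.4% of windows. These matches describe letters only, and no binding was measured.

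Total counts per library ran from 449880 to 1264354 in the AOM table, and the 10 genes together took 0.0223% to 0.0570% of them. In the MC-38 table totals ran from 480136 to 986415, with a share of 0.0685% to 0.210%. Levels below are counts relative to the library size (CPM) after TMM scaling within each table, so values of the AOM and MC-38 tables are set side by side only as a description. Each gene's difference is a log2 value with its standard error (SE) from the quasi-likelihood test of edgeR, and its adjusted p is the Benjamini-Hochberg value over all genes tested in that comparison, with 0.05 as the threshold. Il10, Ccr8 and Ccr4 were thin: in the AOM table Il10 had fewer than 10 counts in 24 of 25 libraries, Ccr8 in 21 and Ccr4 in 25. In bulk RNA, fewer cells of a type and less RNA per cell cannot be told apart. The labels do not say that samples of a group came from separate mice, so the p-values measure the spread between samples, which may be partly technical.

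One library stood apart before any comparison. Wild-type tumour 2 had 249 CPM of the B cell gene Ms4a1, while the other 4 wild-type tumours had 4.14 to 7.39 CPM. Some of the values that rest on wild-type tumour 2 are also given without it, but not all. T cell transcripts were present in every group: the CD3 genes (Cd3d, Cd3e, Cd3g, Cd247) summed to 70.3 to 688 CPM over the AOM libraries and to 1411 to 2417 CPM over the MC-38 libraries. Kit was lower in sash than in wild-type lesions (log2 difference -1.78, SE 0.26, adjusted p = 0.0144, edgeR). In tumours the difference of Kit was -1.65 (adjusted p = 0.0779, edgeR), which did not pass.

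**Figure D1:**
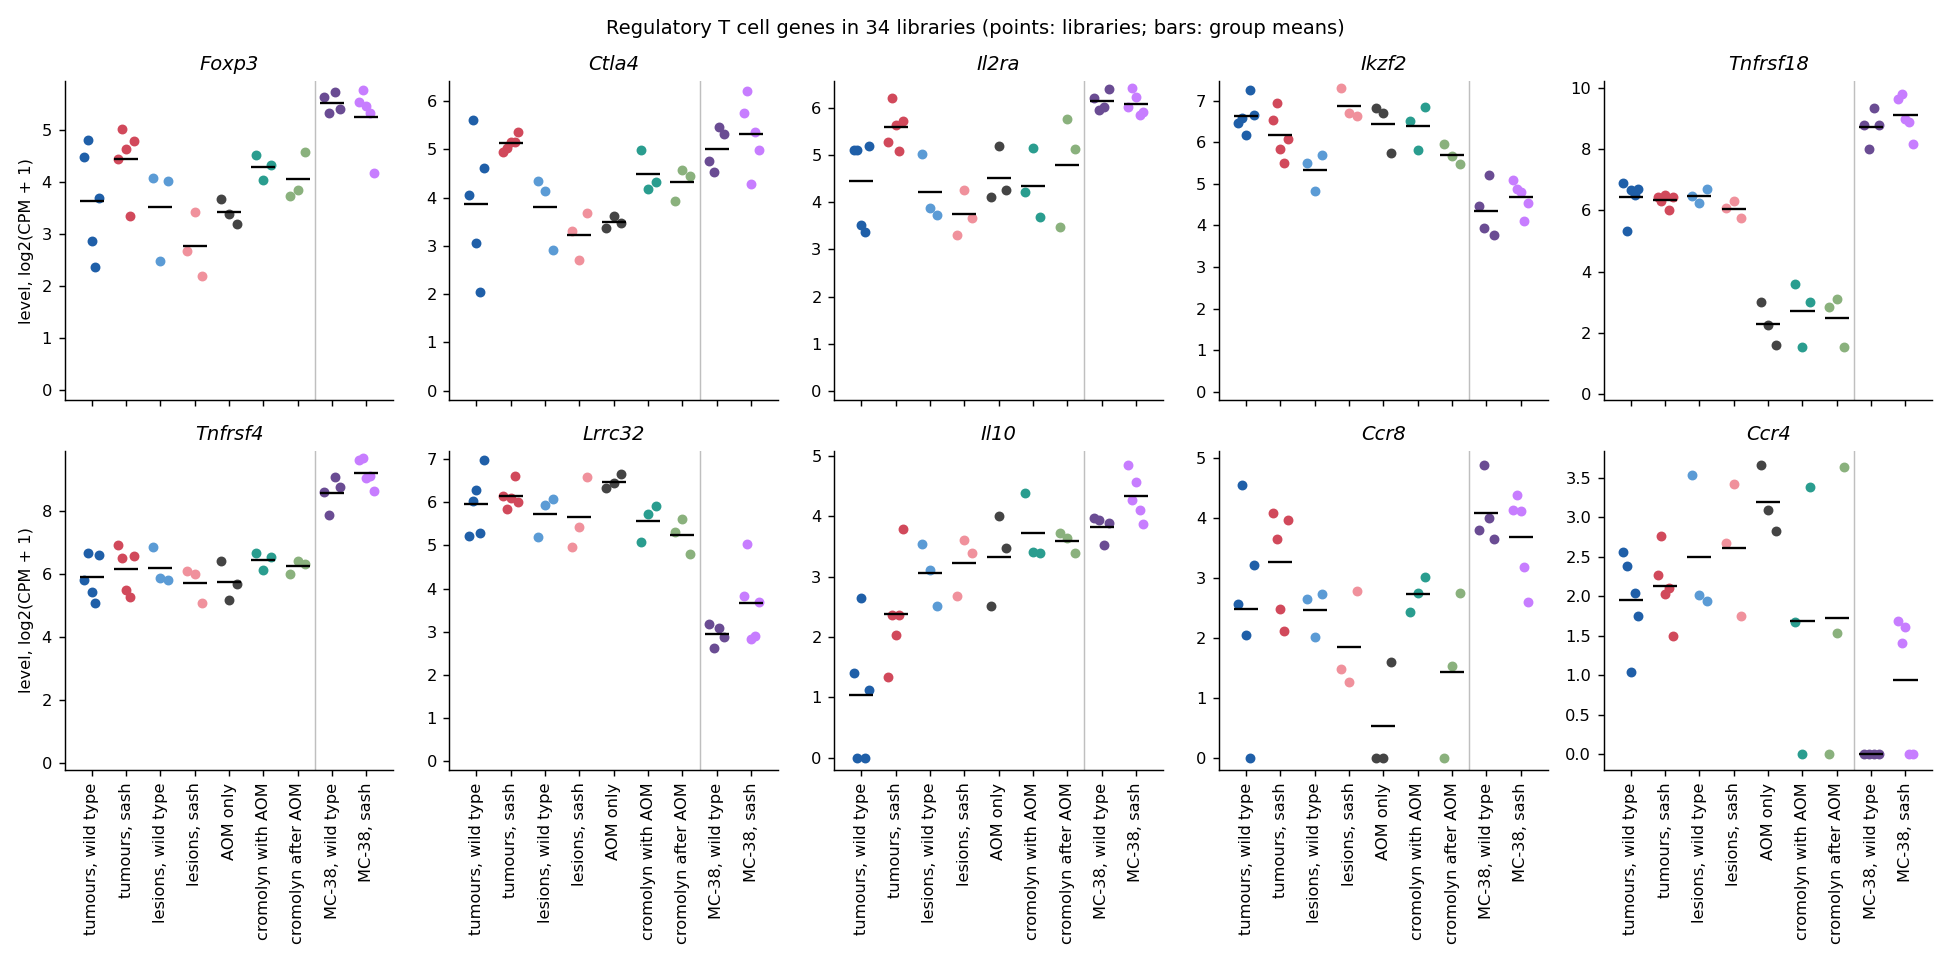
Levels of the 10 genes in 34 libraries, as log2(CPM + 1) on the vertical axis of each panel (scales differ between panels), with libraries as points, group means as bars, and a grey line between the AOM and MC-38 tables. Tnfrsf18 lies low in all 9 libraries of the cromolyn experiment, and Foxp3, Ctla4 and Il2ra lie higher in sash tumours than in most sash lesions.

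The clearest movement of the core trio was between sash lesions and sash tumours. Foxp3, Ctla4 and Il2ra were each higher in the tumours by between 1.83 and 1.92 on the log2 scale, and all 3 passed the test. In wild-type mice none of the 3 passed. Tumours and lesions differ in age, in the number of AOM injections and in time since the last one, so these cannot be told apart as the source of the difference. Sash tumours also had larger library totals, 1051059 to 1264354 counts against 621846 to 816883 in sash lesions. The labels name no batch, so any difference in handling or run between the stages cannot be told apart from stage either.

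Foxp3 in sash tumours measured 20.6, 31.5, 23.9, 9.13 and 26.5 CPM. In sash lesions it measured 5.37, 9.72 and 3.54 CPM, which are only 3, 7 and 3 counts. Of the 5 tumours, 4 lay above every lesion, tumour 4 being the exception. The log2 difference was 1.83 (SE 0.67, adjusted p = 0.0353, edgeR).

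Ctla4 was even across sash tumours, at 29.7, 31.5, 34.6, 34.9 and 40.3 CPM. Sash lesions held 8.95, 5.56 and 11.8 CPM, so the groups did not overlap. The log2 difference was 1.92 (SE 0.69, adjusted p = 0.0315, edgeR). Il2ra was 38.1, 73.7, 49.2, 33.2 and 52.2 CPM in the tumours and 8.95, 18.1 and 11.8 CPM in the lesions. These groups did not overlap either, with a log2 difference of 1.91 (SE 0.55, adjusted p = 0.0112, edgeR).

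The panel as a whole moved strongly between these stages. Of 848 genes tested, 47.5% passed in either direction, 23.9% were higher in sash tumours, and 52.6% had groups that did not overlap. Of the 10 regulatory T cell genes 8 were tested here, of which 3 were higher and none lower. Their median log2 difference was 1.05, against 0.02 over all genes tested. Foxp3, Ctla4, Il2ra and Ccr8 held too few counts to be tested in lesions alone, so their being tested here drew on the tumour libraries. The tested set may therefore lean towards genes higher in tumours, and its counts and median are a description only. The untested Il10 and Ccr4 had lower means in sash tumours (5.14 and 3.57 CPM) than in sash lesions (8.64 and 5.82 CPM). With scaling on the 2 reference genes of the panel, Rpl13a and Tfrc, all 3 calls were lost (adjusted p = 0.107 for Foxp3, 0.111 for Ctla4 and 0.0579 for Il2ra). These 2 genes were themselves uneven, with a sum of 48361.5 to 127762 CPM over the sash lesions. Foxp3 lost its call without sash tumour 2, 3 or 5 or sash lesion 1 or 3 (adjusted p 0.0570 to 0.128), Ctla4 without sash tumour 5 or any 1 of the sash lesions (0.0505 to 0.117), and Il2ra without sash lesion 1 (0.0544).

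In wild-type mice the spread among tumours was wide. Foxp3 measured 21.4, 26.8, 6.30, 4.14 and 11.8 CPM in tumours and 15.9, 4.54 and 15.1 CPM in lesions, and the ranges overlapped. Ctla4 was 15.6, 47.9, 7.35, 3.10 and 23.6 CPM in wild-type tumours and 19.5, 16.7 and 6.59 CPM in lesions. Il2ra was 33.7, 33.8, 10.5, 9.30 and 35.4 CPM against 31.8, 13.6 and 12.2 CPM. Tumour 4 was the lowest wild-type tumour for all 3 genes, and tumour 2 the highest for Foxp3 and Ctla4. The log2 differences between tumours and lesions were 0.19 for Foxp3 (SE 0.62), 0.43 for Ctla4 (SE 0.65) and 0.33 for Il2ra (SE 0.52), with adjusted p of 0.839, 0.631 and 0.645 by edgeR. Without tumour 2 the first 2 changed sign, to -0.15 and -0.20. The change of the sash effect between lesions and tumours, tested as such, was 1.64 for Foxp3 (SE 0.90, adjusted p = 0.389), 1.49 for Ctla4 (SE 0.93, adjusted p = 0.467) and 1.57 for Il2ra (SE 0.75, adjusted p = 0.326) by edgeR. No difference between the genotypes in this rise was therefore shown. On this test 0% of 848 genes passed, 128 had an unadjusted p under 0.05, and DESeq2 called 19.

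Compared directly within tumours, sash values of the trio were higher on average without passing the test. Il2ra had a mean of 49.3 CPM ± 15.7 (SD, n = 5) in sash tumours and 24.5 CPM ± 13.4 (SD, n = 5) in wild-type tumours. Of the 5 sash tumours, 4 lay above every wild-type tumour. The log2 difference was 0.98 (SE 0.44, adjusted p = 0.244, edgeR). For Ctla4 it was 0.79 (SE 0.57, adjusted p = 0.475) and for Foxp3 0.64 (SE 0.52, adjusted p = 0.530), both by edgeR. Without wild-type tumour 2 the Ctla4 difference was 1.45 (adjusted p = 0.169) and that of Foxp3 1.00 (adjusted p = 0.331). The background in tumours was 0% of 797 genes by edgeR, with 159 at an unadjusted p under 0.05 and 81 called by DESeq2. Of the 10 genes 7 were tested in tumours and none passed.

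In lesions, Foxp3, Ctla4 and Il2ra held too few counts for the test. Sash lesions were at 13 counts of Foxp3 in all 3 libraries and wild-type lesions at 28. The ranges of all 3 genes overlapped between the genotypes.

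The MC-38 tumours, scaled on their own, had the highest Foxp3 and Il2ra means of the 9 groups. Foxp3 was 38.8, 41.2, 48.6 and 52.2 CPM in wild-type hosts and 16.98, 38.8, 43.1, 45.4 and 53.1 CPM in sash hosts. Il2ra ran from 60.9 to 83.4 CPM in wild-type and from 56.5 to 84.7 CPM in sash hosts, and Ctla4 from 22.01 to 43.3 CPM and from 18.5 to 73.0 CPM. Host genotypes overlapped for each gene. The log2 differences, sash minus wild type, were -0.20 for Foxp3 (SE 0.29, adjusted p = 0.708), -0.07 for Il2ra (SE 0.19, adjusted p = 0.844) and 0.40 for Ctla4 (SE 0.37, adjusted p = 0.550), by edgeR. Of 714 genes tested in MC-38 tumours 1.26% passed, among them none of the 8 regulatory T cell genes tested.

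**Figure D2:**
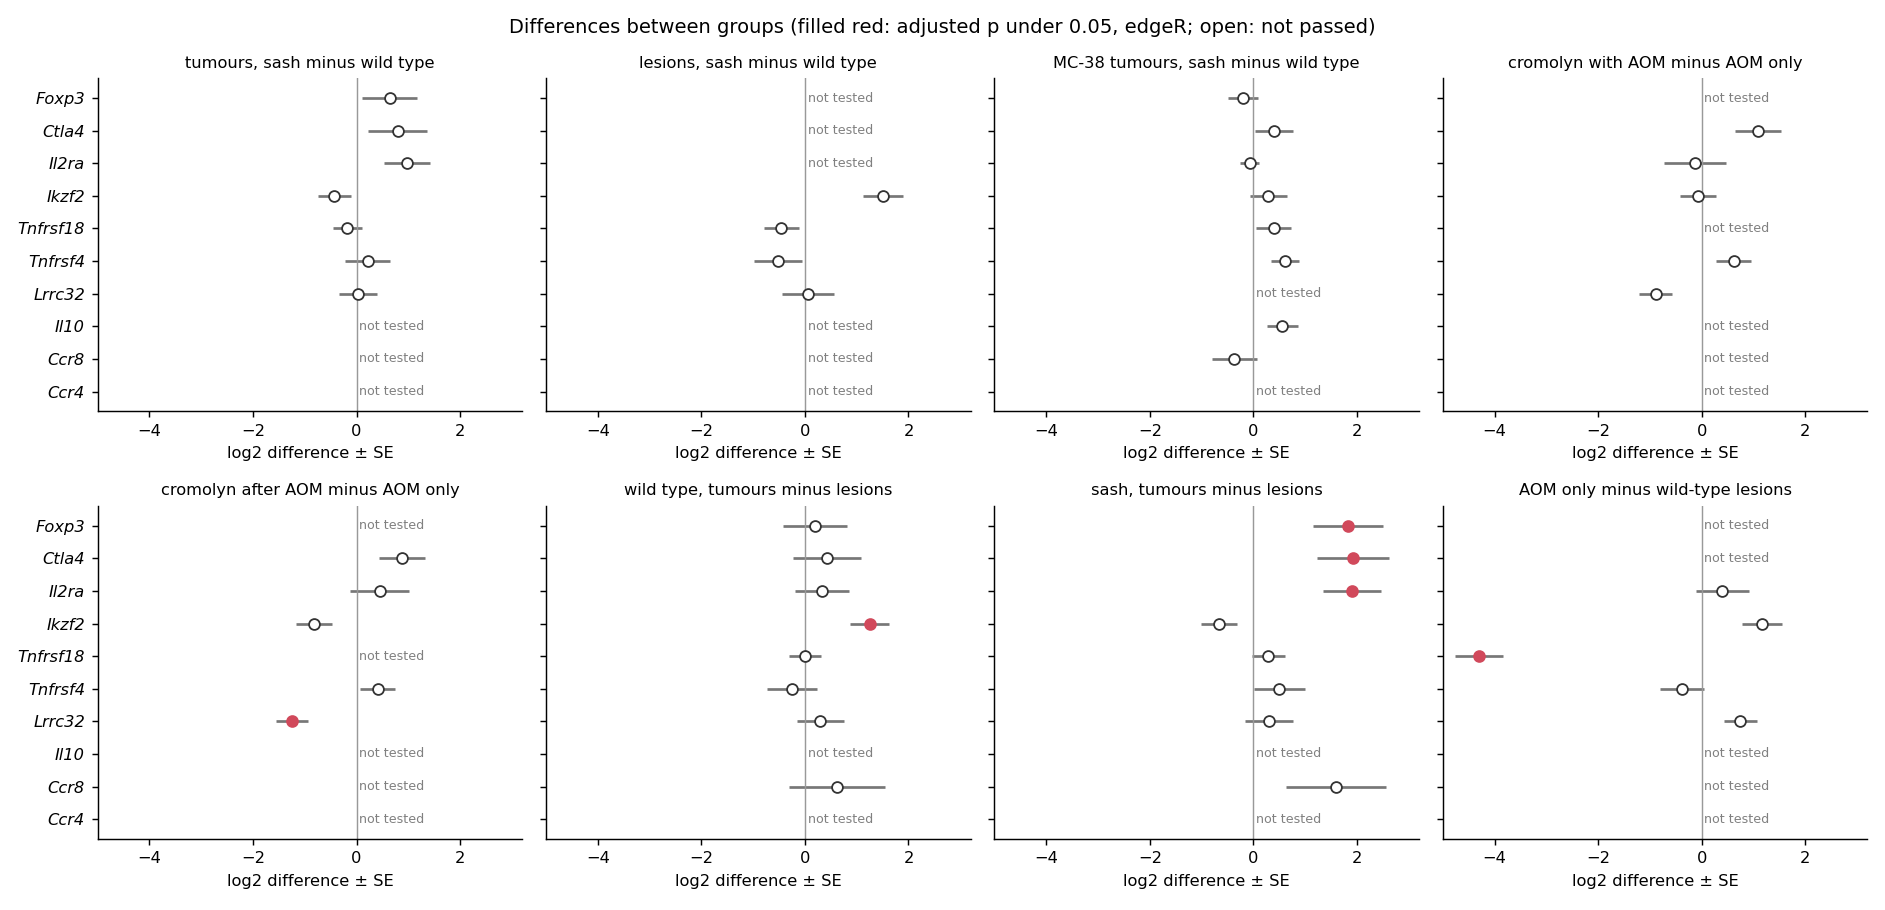
Log2 difference ± SE of each of the 10 genes (rows) in 8 comparisons (panels), from edgeR, with filled red points at an adjusted p under 0.05 and open points above it. Red points are Foxp3, Ctla4 and Il2ra in sash tumours minus lesions, Ikzf2 in wild-type tumours minus lesions, Lrrc32 after cromolyn, and Tnfrsf18 in AOM only minus wild-type lesions.

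Foxp3 was also set against the CD3 genes of the same library, as log2(Foxp3 CPM + 1) minus the mean of log2(CPM + 1) over the 4 CD3 genes. This value was -1.06 ± 0.62 (SD, n = 5) in sash tumours and -1.74 ± 0.34 (SD, n = 5) in wild-type tumours. It was -3.38 ± 0.57 (SD, n = 3) in sash lesions and -2.84 ± 0.79 (SD, n = 3) in wild-type lesions. In the cromolyn experiment it was -2.58 ± 0.36 with AOM only, -2.25 ± 0.20 with cromolyn during AOM and -2.29 ± 0.42 with cromolyn after it (SD, n = 3 each). MC-38 tumours stood at -2.59 ± 0.22 (SD, n = 4) in wild-type and -3.11 ± 0.43 (SD, n = 5) in sash hosts.

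Every sash tumour lay above every sash lesion on this measure, a mean difference of 2.32 with p = 0.0179 by the exact two-sided permutation test, the smallest p these sample numbers allow. Wild-type tumours were 1.11 above wild-type lesions (exact permutation p = 0.0536). Sash tumours were 0.68 above wild-type tumours (exact permutation p = 0.0714), and MC-38 tumours of sash hosts 0.53 below those of wild-type hosts, written as a difference of -0.53 (exact permutation p = 0.0397). The difference between lesions of the genotypes was -0.54 (exact permutation p = 0.5), and cromolyn with and after AOM differed from AOM only by 0.33 and 0.29 (exact permutation p = 0.3 and 0.4). The exact permutation test of 3 against 3 in these last comparisons cannot go below p = 0.1. After adjustment over the 7 comparisons none passed, since the lowest adjusted value was 0.125. Within sash mice the CD3 genes had a median difference of -0.64 between tumours and lesions, and none of the 4 passed the edgeR test.

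**Figure D3:**
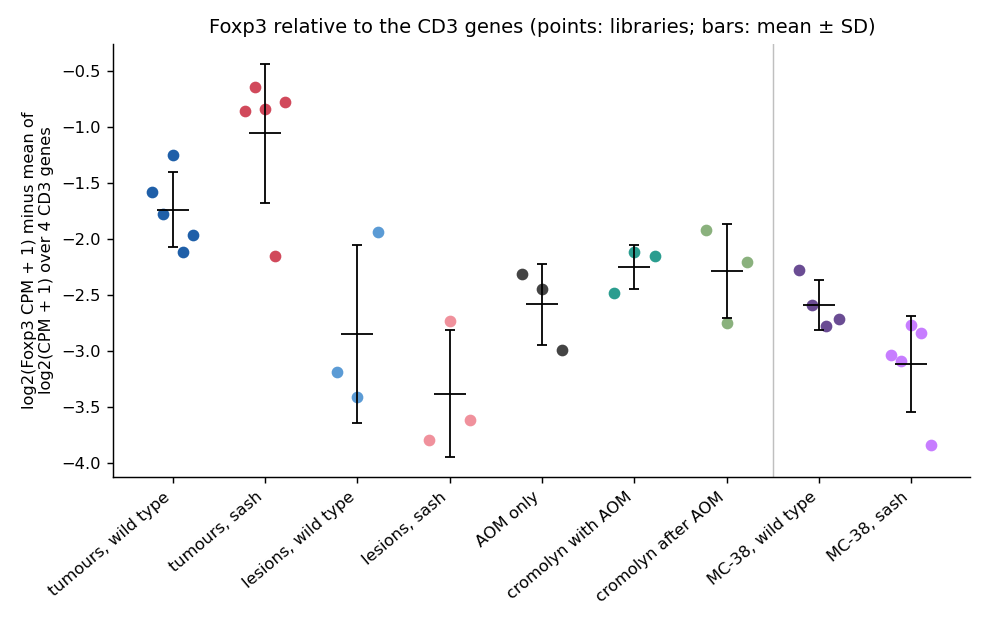
Foxp3 relative to the CD3 genes (log2, vertical axis) in each library of the 9 groups, with points for libraries and bars for mean ± SD. Sash tumours (mean -1.06) lie above sash lesions (mean -3.38) without overlap, and 1 sash tumour lies at -2.15, apart from the other 4.

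Other cell types moved between sash lesions and tumours as well. Of 15 pan-T genes tested, 1 was higher in tumours (the T cell kinase Zap70, 2.63, adjusted p = 0.00055) and 2 were lower, Cd8a by -3.00 (adjusted p = 0.000339) and the costimulatory receptor Cd27 by -1.35 (adjusted p = 0.0327), all by edgeR, with a median of -0.48. Of 7 macrophage and dendritic cell genes, 3 were higher and 1 lower. Their summed level was 1414 to 1835 CPM in sash tumours and 442 to 1033 CPM in sash lesions. Of 7 cytotoxic and NK cell genes 5 were lower in sash tumours, with a median of -2.20. The 6 B cell genes tested were all below 0, with a median of -2.89, and edgeR called 0 of them, with 3 at an unadjusted p under 0.05. The part of these cells in the differences of Foxp3, Ctla4 and Il2ra was not tested.

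Ligands and partners of the 10 genes gave 12 testable genes, of which 4 were higher and 1 lower in sash tumours than in sash lesions. Cd80, a ligand of CTLA-4, differed by 1.88 (SE 0.47, adjusted p = 0.00455), but held too few counts to be tested in lesions alone. Tgfb1, the cytokine precursor that GARP holds, differed by 1.56 (SE 0.36, adjusted p = 0.00269), and Itgav, a subunit of integrins that release it, by 1.69 (SE 0.27, adjusted p = 0.000195). Tgfb3 fell by 1.32 (SE 0.35, adjusted p = 0.00701). These edgeR values describe whole tissue, and both Cd80 and the TGF-beta genes are used by many cells.

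The remaining partners tested in sash mice did not pass. Cd86, the other CTLA-4 ligand, differed by 1.00 (adjusted p = 0.078) and Cd28, which competes for these ligands, by -0.79 (adjusted p = 0.175). The IL-2 receptor chains Il2rb and Il2rg differed by 0.14 (adjusted p = 0.805) and 0.71 (adjusted p = 0.087). Tgfb2 differed by -0.42 (adjusted p = 0.488) and Ccl17, a ligand of CCR4, by 0.10 (adjusted p = 0.877), all by edgeR.

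Tnfsf18 and Tnfsf4, the ligands of GITR and OX40, had few counts in lesions and more in tumours. Neither could be tested in lesions alone, so both entered the comparison of stages only through the tumours, where they are higher. Tnfsf18 had 0, 0 and 1 count in wild-type lesions and 57, 14, 26, 6 and 48 counts in wild-type tumours. Pooled over the groups and divided by their totals this is a ratio of 82.6, with an exact 95% interval of 14.6 to 3283 that covers counting error only. The ratio rests on 1 count, and without wild-type lesion 3 no count was left in lesions. In sash mice 4, 3 and 4 counts in lesions stood against 24 to 36 in tumours, a pooled ratio of 5.28 (exact 95% interval 2.87 to 10.8). Both Tnfsf18 differences passed the edgeR test (adjusted p = 0.00032 in wild-type and 0.0123 in sash mice).

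Tnfsf4 had 1, 0 and 0 counts in wild-type lesions and 44, 6, 11, 2 and 29 in wild-type tumours, a pooled ratio of 50.3 (exact 95% interval 8.81 to 2008; adjusted p = 0.00596, edgeR). Without wild-type lesion 3 the ratio was 26.9, and without wild-type lesion 1 no count was left in lesions. In sash mice 3 counts stood against 41, a ratio of 5.33, or 10.2 without sash lesion 3 and 3.40 without sash lesion 2 (exact 95% interval 1.70 to 26.9; adjusted p = 0.102, edgeR). The interaction with genotype did not pass for either ligand (adjusted p = 0.186 for Tnfsf18 and 0.483 for Tnfsf4, edgeR).

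Of the other partners in wild-type mice, Itgav rose by 1.41 (SE 0.27, adjusted p = 0.00113) and Cd28 fell by 1.72 (SE 0.47, adjusted p = 0.0119), by edgeR. Cd80, Cd86, Il2rb, Il2rg, Ccl17, Tgfb2 and Tgfb3 did not pass, at adjusted p between 0.108 and 0.870, and Tgfb1 stood at 0.82 (adjusted p = 0.0713).

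Among 20 other genes tied to regulatory T cells that were tested, 6 were higher and 2 lower in sash tumours than in sash lesions. The 3 of smallest p were Tnfrsf9, a costimulatory receptor of activated T cells (5.25, adjusted p = 9.31e-05), Tnfrsf1b, a TNF receptor (1.03, adjusted p = 0.000707), and Cxcr3, a chemokine receptor of type 1 T cells (-2.05, adjusted p = 0.00427), by edgeR. The median of the list was 0.71. Tnfrsf9 held too few counts to be tested in lesions alone. In wild-type mice 3 were higher and 2 lower, with a median of 0.00.

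Ikzf2 followed another pattern than the trio, with its lowest AOM values in wild-type lesions. These held 44.2, 27.3 and 50.9 CPM. Sash lesions held 156, 103 and 97.9 CPM, all 3 above every wild-type lesion. Wild-type tumours, at 87.1, 94.4, 71.4, 151 and 99.3 CPM, were also all above the wild-type lesions. The share of all genes separated in this way was not counted for wild-type tumours against lesions.

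Between lesions the log2 difference of Ikzf2, sash minus wild type, was 1.51 (SE 0.38, adjusted p = 0.0790, edgeR), just outside the threshold. The same-numbered lesions of the genotypes deviated together, although the labels do not say that they were paired. With the replicate number as a block the difference was 1.504 with an adjusted p of 0.0152 (edgeR). DESeq2 gave an adjusted p of 0.00674 and an edgeR fit of all 25 libraries 0.0428. Of 775 genes tested in lesions, 2.84% passed without the block, 10.8% passed with it, and 24.3% had groups that did not overlap. The number of genes called by edgeR, 22, was 68 without wild-type lesion 3, 13 without sash lesion 3 and 0 without sash lesion 2, where 106 genes had an unadjusted p under 0.05. The 4 regulatory T cell genes tested in lesions gave 0 calls without the block.

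Most pan-T genes lay on the other side of 0 from Ikzf2. In lesions 1 of 15 pan-T genes was above 0, their median was -0.77, and none passed. B cell genes were lower in sash lesions: 3 of 6 tested passed, with Ms4a1 at -4.02 (adjusted p = 0.0326, edgeR), and the 7 on the panel summed to 42.4 to 238 CPM in sash and 671 to 2426 CPM in wild-type lesions. The part of these cells in the Ikzf2 difference was not tested.

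From lesions to tumours Ikzf2 rose by 1.25 in wild-type mice (SE 0.38, adjusted p = 0.0191, edgeR). Of 848 genes 37% passed in this comparison and 19.5% were higher in tumours, and of the 8 regulatory T cell genes tested Ikzf2 was the 1 that passed. The call was lost with reference-gene scaling (adjusted p = 0.0568) and without wild-type lesion 2 (0.0803). In sash mice Ikzf2 stood at 91.5, 122, 56.2, 44.001 and 65.9 CPM in tumours, with 4 of 5 below every lesion. That difference was -0.66 (SE 0.35, adjusted p = 0.132, edgeR), and without sash tumour 2 it was -0.89 (adjusted p = 0.0481). The difference of the genotype effects was -1.90 (SE 0.51, unadjusted p = 0.00194, adjusted p = 0.164, edgeR), the ninth of 848 genes by p. DESeq2 gave it an adjusted p of 0.0202. In tumours the genotypes differed by -0.43 (SE 0.32, adjusted p = 0.489, edgeR).

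The wild-type lesions also lay below the AOM-only group for Ikzf2, although the labels give both the same treatment. AOM-only libraries held 112, 103 and 52.7 CPM, all above the wild-type lesions, and the share of all genes separated in this way was not counted here. The log2 difference was 1.17 (SE 0.39, adjusted p = 0.0691, edgeR), and it passed with reference-gene scaling (adjusted p = 0.0177) and without wild-type lesion 3 (0.0407). Cromolyn with AOM gave 90.2, 55.5 and 114 CPM and cromolyn after AOM 61.1, 49.5 and 43.8 CPM, at differences from AOM only of -0.07 (adjusted p = 0.922) and -0.82 (adjusted p = 0.203) by edgeR. MC-38 tumours held 12.7 to 35.8 CPM of Ikzf2 in wild-type and 16.2 to 33.2 CPM in sash hosts, the lowest group means of the 9 groups, with a difference of 0.29 (SE 0.35, adjusted p = 0.647, edgeR).

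Tnfrsf18 was nearly undetected in the cromolyn experiment. All 9 libraries of that experiment held 1 to 5 counts. AOM only had 3, 2 and 1 counts (7.01, 3.76 and 2.03 CPM), cromolyn with AOM 5, 1 and 3 counts (11.002, 1.91 and 7.10 CPM), and cromolyn after AOM 3, 4 and 1 counts (6.11, 7.62 and 1.90 CPM). The 16 tumour and lesion libraries held 28 to 145 counts, at 39.5 to 119 CPM with a median of 86.1. The share of all genes that separate these 2 sets of libraries was not counted.

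Wild-type lesions, which carry the same labelled treatment as AOM only, measured 88.4, 74.2 and 102 CPM of Tnfrsf18. Pooled, 207 counts stood against 6, a ratio of 21.1 with an exact 95% interval of 9.53 to 58.2 that covers counting error only. The log2 difference, AOM only minus wild-type lesions, was -4.30 (SE 0.46, adjusted p = 0.00052, edgeR). It was the lowest of the 762 genes tested, followed by Oas2 at -4.24. Of all genes 15.6% passed in this comparison and 8.66% passed as lower in AOM only. The Tnfrsf18 call held without each of the 6 libraries in turn (adjusted p 0.000486 to 0.00827), while the number of genes called moved between 11 and 268. This comparison was added after the values were seen.

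The neighbouring receptor gene Tnfrsf4 did not pass between the same groups. Both lie on chromosome 4 with 2 gene models, Gm16008 and Gm25982, annotated between them. Tnfrsf4 measured 84.1, 35.7 and 50.7 CPM with AOM only and 117, 57.6 and 55.6 CPM in wild-type lesions, which overlapped. The log2 difference was -0.38 (SE 0.43, adjusted p = 0.566, edgeR), and it changed sign with reference-gene scaling. The count of Tnfrsf18 divided by that of Tnfrsf4 in the same library was 0.0238 to 0.109 in the 9 libraries of the cromolyn experiment, 0.389 to 2.69 in the 16 tumours and lesions, and 0.721 to 1.21 in the 9 MC-38 tumours. As a ratio of 2 amplicons it has no absolute meaning, and how many other pairs of genes separate these sets was not counted.

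**Figure D4:**
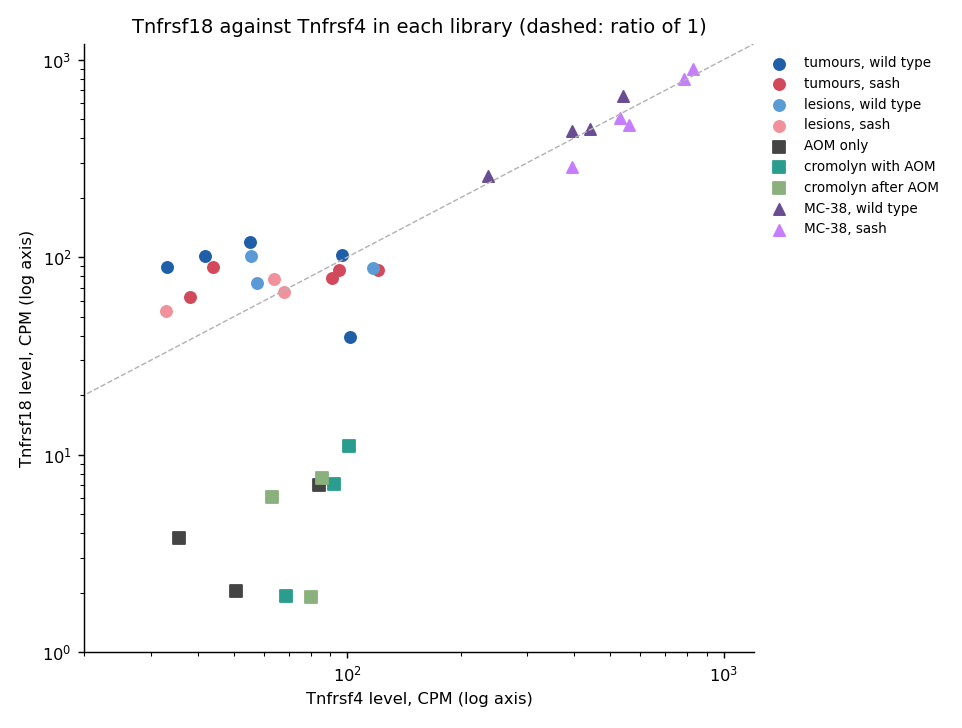
Tnfrsf18 against Tnfrsf4 in each of 34 libraries, in CPM on log axes, with squares for the cromolyn experiment, circles for tumours and lesions, triangles for MC-38 tumours and a dashed line at a ratio of 1. The 9 squares lie at 1.90 to 11.002 CPM of Tnfrsf18, within the Tnfrsf4 range of the circles.

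B cell genes also differed between these 2 wild-type groups, with 4 of 6 tested lower in AOM only and summed levels of 145 to 346 CPM against 671 to 2426 CPM. Within the cromolyn experiment the same sum ran from 305 to 2099 CPM in the 6 cromolyn-treated libraries. The part of B cells in the Tnfrsf18 difference was not tested. The CD3 genes summed to 245 to 327 CPM in AOM only and 247 to 688 CPM in wild-type lesions. Of 9 ligands and partners tested between these groups 1 passed, Cd28, higher in AOM only by 1.22 (SE 0.36, adjusted p = 0.047, edgeR). The experiment and its handling cannot be told apart from the group here, and the labels name no batch.

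Between stages and genotypes Tnfrsf18 did not pass. Tumours held 119, 39.5, 101, 88.9 and 103 CPM in wild-type and 86.2, 78.7, 89.3, 63.1 and 86.1 CPM in sash mice, and sash lesions 66.2, 77.8 and 53.1 CPM. The low value of 39.5 CPM is wild-type tumour 2. Without it the wild-type difference between tumours and lesions, given next with it, was 0.18 (adjusted p = 0.594, edgeR). The sash minus wild-type difference was -0.18 (SE 0.28, adjusted p = 0.761) in tumours and -0.45 (SE 0.33, adjusted p = 0.561) in lesions, and tumours minus lesions gave -0.01 (SE 0.31, adjusted p = 0.988) in wild-type and 0.29 (SE 0.32, adjusted p = 0.467) in sash mice, by edgeR. The ligand Tnfsf18 passed between stages where its receptor did not, but the ligand was testable only through the tumours, where it is higher. The contrast of ligand and receptor was not itself tested.

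Tnfrsf4 did not pass in any comparison either. Its means in the AOM groups lay between 55.0 CPM in sash lesions and 87.5 CPM with cromolyn during AOM, and neighbouring AOM groups overlapped. Among the fitted comparisons of 2 AOM groups the largest difference was 0.61, for cromolyn with AOM against AOM only (SE 0.34, adjusted p = 0.384, edgeR).

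On the separate scaling of the MC-38 table, both receptors lay above every AOM library, as did the sum of the CD3 genes given above. The 13 cytotoxic and NK cell genes also did so, with sums of 5282 to 10523 CPM in MC-38 and 109 to 865 CPM in AOM libraries. The share of all genes separated in this way was not counted. Tnfrsf18 was 258, 436, 444 and 652 CPM in wild-type hosts and 285, 467, 509, 801 and 895 CPM in sash hosts. Tnfrsf4 was 237, 394, 440 and 539 CPM in wild-type and 396, 532, 561, 786 and 828 CPM in sash hosts, where 3 of 5 lay above every wild-type host. The difference of Tnfrsf4 was 0.61 (SE 0.27, adjusted p = 0.201, edgeR) and that of Tnfrsf18 0.39 (SE 0.34, adjusted p = 0.516, edgeR). Mast cell genes separated these hosts, at 178 to 229 CPM summed over 8 genes in sash and 634 to 1351 CPM in wild-type hosts.

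Of the 11 ligands and partners tested in MC-38 tumours none passed, as in AOM tumours (12 tested), in lesions (9 tested) and in both cromolyn comparisons (9 tested each). In MC-38 tumours the log2 differences ran from -0.38 for Itgav to 1.23 for Tgfb2, with Ccl1 (a ligand of CCR8) at -0.02. Cd28 stood at 0.73 (SE 0.29, adjusted p = 0.18, edgeR), with 4 of 5 sash hosts above every wild-type host.

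Of the 5 regulatory T cell genes tested in each cromolyn comparison, Lrrc32 was the 1 that passed, with cromolyn after AOM. Foxp3, Tnfrsf18, Il10, Ccr8 and Ccr4 held too few counts for these tests. AOM only held 79.4, 86.5 and 99.4 CPM. Cromolyn after AOM held 38.7, 47.6 and 26.7 CPM, so the groups did not overlap. The log2 difference of Lrrc32 was -1.25 with an SE of 0.32 and an adjusted p of 0.0427 by edgeR. Of 768 genes tested, 4.82% passed in this comparison, 2.47% passed as lower, and 29.3% had groups that did not overlap. The call was lost with library totals (adjusted p = 0.0685), with reference-gene scaling (0.0679) and in a fit of all 25 libraries (0.407), and also when any 1 of 7 libraries was left out, namely each AOM-only library, each library of cromolyn after AOM, and cromolyn with AOM 3 (0.0551 to 0.134).

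With cromolyn given during AOM, Lrrc32 was at 33.01, 51.7 and 59.2 CPM, also below every AOM-only library. The share of all genes with groups that did not overlap was not counted for this comparison. The log2 difference was -0.89 (SE 0.31, adjusted p = 0.183, edgeR). Both cromolyn comparisons use the same 3 AOM-only libraries, so their agreement in direction is not independent. Of 768 genes 0.26% passed with cromolyn during AOM, and none of the 5 regulatory T cell genes tested did.

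Lrrc32 in AOM only was itself above wild-type lesions, which held 35.4, 60.6 and 65.9 CPM, at a log2 difference of 0.75 (SE 0.32, adjusted p = 0.134, edgeR) that passed with reference-gene scaling (1.14, adjusted p = 0.0427). The cromolyn-treated libraries, from 26.7 to 59.2 CPM, overlapped the wild-type lesions. Endothelial genes on the panel (2 of the 9 listed) summed to 205 to 231 CPM in AOM only, 158 to 194 CPM with cromolyn during AOM and 136 to 234 CPM with cromolyn after it, and 1 was testable, with -0.42 for cromolyn after AOM and no call. Their part in the Lrrc32 difference was not tested.

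Elsewhere Lrrc32 did not pass, and in MC-38 tumours it held too few counts for the test. Wild-type tumours held 36.1, 64.8, 76.6, 38.3 and 125 CPM and sash tumours 69.4, 56.3, 67.7, 97.1 and 63.2 CPM. Sash lesions held 30.4, 41.7 and 95.5 CPM. MC-38 tumours were the lowest of the 9 groups, at 5.18 to 8.11 CPM in wild-type and 6.16 to 31.5 CPM in sash hosts, on 3 to 19 counts.

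The trio under cromolyn gave values without a call. Ctla4 was 9.35, 11.3 and 10.1 CPM with AOM only. It was 30.8, 17.2 and 18.9 CPM with cromolyn during AOM and 14.3, 22.9 and 20.9 CPM with cromolyn after it, all 6 above AOM only. Of 768 genes 29.3% had groups that did not overlap for cromolyn after AOM, and for cromolyn during AOM this share was not counted. The log2 differences were 1.08 (SE 0.44, adjusted p = 0.246) and 0.88 (SE 0.44, adjusted p = 0.266), by edgeR. Foxp3, with 4 to 12 counts a library, was below the filter. It stood at 11.7, 9.40 and 8.11 CPM with AOM only and at 12.2 to 22.8 CPM in the 6 cromolyn libraries. Il2ra overlapped between the 3 groups, at 10.2 to 53.3 CPM. Pan-T genes leaned the same way as Ctla4, with 15 of 15 above 0 in each comparison (medians 0.62 and 0.47) and no call.

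The cytokine and the chemokine receptors can be described only by their counts. Il10 had 0 to 5 counts in wild-type tumours (0 in 2 of 5 libraries), 2 to 14 in sash tumours, 5 or 6 in wild-type lesions and 3 to 8 in sash lesions. In CPM, 4 of 5 wild-type and 4 of 5 sash tumours were below every lesion of their genotype. In MC-38 tumours it was testable, at 10.4 to 14.6 CPM in wild-type and 13.6 to 27.7 CPM in sash hosts, with 4 of 5 sash hosts above every wild-type host and a log2 difference of 0.56 (SE 0.30, adjusted p = 0.286, edgeR).

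Ccr8 summed to 32 counts in wild-type and 61 in sash tumours, with 16 of the wild-type counts in tumour 2. It summed to 11 counts in wild-type and 7 in sash lesions. Tumours minus lesions gave 1.60 in sash mice (SE 0.96, adjusted p = 0.175) and 0.61 in wild-type mice (SE 0.93, adjusted p = 0.631), by edgeR, and the latter became -0.26 without tumour 2. AOM only had 0, 0 and 1 counts. In MC-38 tumours Ccr8 was 11.6 to 28.5 CPM in wild-type and 5.09 to 19.9 CPM in sash hosts, with a difference of -0.37 (SE 0.43, adjusted p = 0.631, edgeR).

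Ccr4 never reached 10 counts. It was at 0 in all 4 MC-38 tumours of wild-type hosts, where a count of 0 in 3053658 allows up to 0.982 CPM of the library totals, and at 2, 1, 1, 0 and 0 counts in sash hosts. In the AOM groups its means ran from 3.13 CPM in wild-type tumours to 8.43 CPM with AOM only.

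The genes whose levels followed Foxp3 most closely over the 25 AOM libraries, by Spearman's rho among 819 genes, were Bst1 (0.735), Il13ra2 (0.732), Cybb (0.716), Csf2rb (0.705) and Ctla4 (0.699). Il2ra came sixth (0.637) and Tnfrsf4 seventh (0.636). Tnfrsf18 was at rank 390 (0.0423), Ikzf2 at rank 510 (-0.0915) and Lrrc32 at rank 638 (-0.273). Over the 9 MC-38 libraries, among 733 genes, the closest were 4632428N05Rik (0.9), Skap1 (0.9), Ptpn1 (0.883), Fpr2 (0.867) and Fut4 (0.867). Among the regulatory T cell genes, Tnfrsf18 was at rank 40 (0.7), Il2ra at 54, Ikzf2 at 73 and Ccr8 at 122. Ctla4 was at rank 157, Tnfrsf4 at 167, Lrrc32 at 175 and Il10 at 267. These correlations describe libraries that share groups, scaling and depth, and Foxp3 rests on 3 to 41 counts in each.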

How the data were processed

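The values are raw counts per gene as deposited by the authors, in 1 table of 25 AOM libraries and 1 of 9 MC-38 libraries. The 5 control entries held 0 counts and were left out. The submitters' processing notes name mm9 and DESeq2, while for the aligner, the counter and any molecular tags the entry is "not given in the sources used here". Intervals therefore cover counting error only. Of 36 samples 34 were analysed, and 2 MC-38 samples were not analysed here. Groups came from the labels. The genes and lists were chosen with earlier results of these data known.

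Counts were tested with edgeR 4.0.16 (R 4.3.3): TMM, filterByExpr (minimum count 10, minimum total 15), robust quasi-likelihood fit, Benjamini-Hochberg adjustment over all genes tested. Genotypes were fitted within tumours, lesions and MC-38 tumours, the cromolyn experiment as 3 groups, and stages over 4 groups. The script was tested on simulated data. Foxp3 relative to CD3 used a pseudocount of 1 CPM and exact two-sided permutation tests. Named genes were the 10 genes, tested ligands and partners, the CD3 and reference genes, and up to 3 genes of smallest p per other list. Also named were the 5 genes most like Foxp3 among genes with a mean of at least 10 CPM. Other genes or counts named (Ms4a1, Kit, Oas2) were chosen after their values were seen.

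Same-numbered lesions deviated together, with correlations of 0.123 to 0.496 in 3 pairs, so for lesions the replicate block is given beside what it changes. The labels do not say that these lesions were paired. No replicate pair agreed within sampling noise (chi-square per degree of freedom 5.85 to 194 over 51 pairs). Alternatives were DESeq2 1.42.0, RLE factors, library totals, reference genes, no filter, the replicate block, all 25 libraries and leaving out each library. Scaling on 9 genes at the end of the panel and the comparison of AOM only with wild-type lesions were chosen after seeing the data. Promoter windows are from RefSeq (GRCm38.p6), another build than mm9, and were matched by symbol.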

Additional observations from a re-analysis of the deposited data

Results flagged for a closer look

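Of 44 groups of 4 or 5 libraries 3 held a library that lay far from the others, where chance gives about 1 in 20. Il10 was 12.8 CPM in sash tumour 5, on 14 counts, while the other 4 sash tumours had 1.53 to 4.15 CPM. Lrrc32 was 31.5 CPM in MC-38 sash replicate 2, on 19 counts, against 6.16 to 13.3 CPM in the other 4. Foxp3 relative to the CD3 genes was -2.15 in sash tumour 4, lower than in the other 4 sash tumours. Without that tumour the difference between sash and wild-type tumours was 0.96 in place of 0.68, with an adjusted exact permutation p of 0.0625.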

How the results depend on the processing

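Over 58 differences of the 10 genes and 1111 alternative values, 1017 kept direction and side of the threshold, 28 lost a call, 8 gained one and 58 changed sign; calls lost or gained are given beside each result above, except those lost under the replicate block, which follow here, and the cause was not tested. The 7 values of Foxp3 relative to CD3 kept their direction under every alternative run. Comparisons of 3 against 3 cannot reach an exact p under 0.1, so their side of the threshold says nothing about stability.

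The number of genes called moved with the tool and scaling. With DESeq2 it was 81 for tumours (0 by edgeR), 72 for lesions (22), 42 for cromolyn with AOM (2), 56 for cromolyn after AOM (37), 48 for MC-38 (9) and 19 for the difference of genotype effects (0). With reference genes it was 0 and 1 for cromolyn with and after AOM, 49 for MC-38, 172 for wild-type stages (314) and 199 for AOM only against wild-type lesions (119). Library totals gave 2 for tumours and 18 for cromolyn with AOM. In a fit of all 25 libraries it was 88 for tumours, 0 for both cromolyn comparisons and 4 for the difference of genotype effects. Panel-end genes gave 41 for lesions and 4 for MC-38, and no filter gave 36 for lesions. With the replicate block it was 84 for lesions, 7 and 21 for cromolyn with and after AOM, 3 for MC-38 and 4 for the difference of genotype effects.

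The labels give samples only a number and name no pairing. Same-number correlations were 0.123 to 0.496 in lesions, the only set treated as paired. They were -0.377 to 0.245 in tumours and 0.00891 to 0.609 in MC-38. In the cromolyn experiment they were -0.112 to 0.253 and -0.042 to 0.133. For stages the replicate block could use only the 12 libraries numbered up to 3. The block took adjusted p to 0.0735 for Ikzf2 in wild-type stages, 0.0582 for Ctla4 in sash stages and 0.0819 for Lrrc32 after cromolyn.

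Leaving out 1 library at a time, the number of genes called ranged from 0 to 17 for tumours, 0 to 68 for lesions, 0 to 18 and 1 to 41 for cromolyn with and after AOM, 3 to 17 for MC-38, 183 to 367 for wild-type stages, 298 to 437 for sash stages, 0 to 10 for the difference of genotype effects and 11 to 268 for AOM only against wild-type lesions.

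Sign changes touched only differences that had not passed. In tumours Tnfrsf4 was -0.12 and Lrrc32 -0.15 with reference genes, and Lrrc32 -0.04 with panel-end genes. In lesions Lrrc32 was -0.17 with panel-end genes and -0.045 with the block. In MC-38 tumours Ctla4 was -0.13 and Tnfrsf18 -0.054 with the block, and Il2ra 0.033 with panel-end genes. For wild-type stages Tnfrsf18 was 0.014 with DESeq2, 0.012 with RLE factors, 0.20 with library totals, 0.051 with reference genes, 0.024 without a filter and 0.022 with all 25 libraries. For the difference of genotype effects Lrrc32 was -0.0664 with library totals, -0.33 with reference genes and -0.017 without a filter. Between AOM only and wild-type lesions Tnfrsf4 was 0.066 with reference genes.

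Differences that changed sign when 1 library was left out had these ranges. In tumours they were Lrrc32 -0.13 to 0.35. In lesions they were Lrrc32 -0.64 to 0.35. For cromolyn with AOM they were Il2ra -0.69 to 0.30 and Ikzf2 -0.35 to 0.16. For cromolyn after AOM they were Il2ra -0.10 to 0.88. In MC-38 tumours they were Il2ra -0.15 to 0.020 and Ccr8 -0.53 to 0.023. For wild-type stages they were Foxp3 -0.15 to 0.46, Ctla4 -0.20 to 0.76, Tnfrsf18 -0.10 to 0.18, Tnfrsf4 -0.47 to 0.21, Ccr8 -0.26 to 0.97 and Lrrc32 -0.038 to 0.48. For the difference of genotype effects they were Lrrc32 -0.29 to 0.64. Between AOM only and wild-type lesions they were Il2ra -0.060 to 0.57 and Tnfrsf4 -0.78 to 0.049.

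Counts under 10 limit Il10, Ccr8, Ccr4 and, in lesions and the cromolyn experiment, Foxp3 and Ctla4.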
